A study of Mus musculus with 2 samples.

Results

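The cells described here are Fcrls, Folr2 and Gas6 macrophages of mouse B16-F10 melanomas, taken from single-cell RNA profiles of sorted tumour leukocytes. A cell barcode was chosen by its counts of these 3 genes, as a member when it held at least 3 UMIs of Fcrls, Folr2 and Gas6 together. A UMI (unique molecular identifier) counts 1 captured RNA molecule. Members also held at least 1 Csf1r UMI, no Flt3 UMI, under 2 UMIs of Fscn1, under 2 of Xcr1 and Clec9a, under 3 of the CD3 chains Cd3e, Cd3d and Cd3g, and under 10 of Pmel, Mlana and Dct. Barcodes below 500 UMIs or 200 genes, or above 10% mitochondrial UMIs, were left out beforehand. Of the 13854 barcodes kept, 818 were members, namely 568 of 7500 in the OX40 agonist library and 250 of 6354 in the control library.

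Macrophages take up dying cells and debris, and in tissues they also supply growth factors and tune inflammation. Fcrls is an Fc receptor-like gene best known as a marker of mouse microglia. Folr2 encodes a folate receptor found on many tissue-resident macrophages. Gas6 is the ligand that bridges dying cells to the TAM receptors Tyro3, Axl and Mertk, and Stab1, the fourth marker, is a scavenger receptor. Csf1r is the receptor for the macrophage growth factor CSF1. OX40 (Tnfrsf4) is a receptor that helps activated T cells to expand and survive, and an agonist triggers it in place of its ligand.

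The study set leukocytes of tumours from mice given an OX40 agonist beside those of tumours from control mice, to see how the treatment alters the tumour's immune cells. All mice were wild-type C57BL/6 females that received B16-F10 cells, a melanoma line of the same strain, under the skin of the right flank at 10 weeks of age. CD45-positive live cells were sorted and put through droplet 3′ RNA sequencing (10x Genomics, v3 chemistry), with 1 library per group. The sources used here do not give the number of pooled mice, what kind of agonist was used, its dose and schedule, or what the control mice received. The protocol calls live cells DAPI-negative, whereas the design text gives the opposite sign. The OX40 agonist library held 8569 barcodes and 118059108 UMIs, and the control library 7187 barcodes and 114026695 UMIs. Members had a median of 16958 UMIs in the OX40 agonist library and 21859 in the control library, with 3694 and 4228 genes and 3.44% and 3.04% mitochondrial UMIs. The libraries share 18 barcodes, none of them a member. Since each group is a single library, no test was run and each difference below describes these 2 libraries. Intervals in parentheses are 95% intervals that cover counting error only and take every UMI or cell as independent.

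The promoters of the 3 genes that chose the members are shown because every count below rests on their transcripts. Each window runs from 250 bases before to 50 bases after the start of transcription, on the gene's own strand (RefSeq, GRCm38.p6). All 3 genes lie on the minus strand. Fcrls is at chr3:87263475-87263774, Folr2 at chr7:101857141-101857440 (the most upstream of 2 starts) and Gas6 at chr8:13494486-13494785. Capitals mark matches to GAGGAA, the core bound by the macrophage factor PU.1, and to TGCTGA, a MAF half-site, on either strand.
Fcrls: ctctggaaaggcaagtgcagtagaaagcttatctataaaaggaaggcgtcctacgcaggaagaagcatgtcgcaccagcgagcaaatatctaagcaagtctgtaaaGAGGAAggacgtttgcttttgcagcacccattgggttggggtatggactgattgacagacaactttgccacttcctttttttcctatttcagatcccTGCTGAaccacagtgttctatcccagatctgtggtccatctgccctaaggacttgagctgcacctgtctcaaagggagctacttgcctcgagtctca
Folr2: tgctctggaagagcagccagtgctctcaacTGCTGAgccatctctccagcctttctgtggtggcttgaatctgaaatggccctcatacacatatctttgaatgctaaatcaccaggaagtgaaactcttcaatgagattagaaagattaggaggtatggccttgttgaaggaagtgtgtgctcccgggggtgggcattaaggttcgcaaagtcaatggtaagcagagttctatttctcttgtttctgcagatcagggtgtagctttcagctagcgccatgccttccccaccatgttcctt
Gas6: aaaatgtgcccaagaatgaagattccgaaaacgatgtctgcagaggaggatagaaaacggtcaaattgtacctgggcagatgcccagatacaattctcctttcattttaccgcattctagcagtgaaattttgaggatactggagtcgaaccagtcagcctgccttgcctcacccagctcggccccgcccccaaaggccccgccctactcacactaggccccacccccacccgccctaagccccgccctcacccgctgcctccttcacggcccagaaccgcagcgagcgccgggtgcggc
Fcrls held 1 PU.1 core, which begins 144 bases before the start, and 1 MAF half-site, which begins 47 bases before it. Folr2 held 1 MAF half-site that begins 220 bases before the start, and Gas6 held neither motif. The E-box CACGTG was in none of the 3 windows. Of 32851 windows of this length, 28.3% held the PU.1 core, 19.5% the MAF half-site and 7.15% the E-box, so a match is common and only describes the letters.

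The members carried the general macrophage genes, and their levels of the 3 rule genes differed between the libraries. As those genes chose the cells, their values are a description. Levels are in CPM, the UMIs of a gene summed over the members of a library per 1000000 UMIs of those members. Fcrls stood at 315 CPM in OX40 agonist members and 116 CPM in control members. Gas6 stood at 222 and 113 CPM, and Folr2 at 193 and 156 CPM. Fcrls and Gas6 were thus further apart between the libraries than Folr2 was. Stab1, which the rule did not use, stood at 363 CPM in OX40 agonist members and 267 CPM in control members. The median member held 9 UMIs of the 3 genes in the OX40 agonist library and 6 in the control library. Cells with 12 or more such UMIs numbered 238 of 568 in the OX40 agonist library and 48 of 250 in the control library. In the control library 1 cell held 6.96% of the members' Fcrls UMIs.

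Macrophage genes outside the rule were also found in members. All 14 genes of the macrophage identity list reached 10 CPM in either library, but Csf1r, which is among them, was required by the rule. C1qa, a chain of the complement starter C1q, stood at 3414 CPM in OX40 agonist and 4288 CPM in control members. The macrophage surface gene Adgre1 (F4/80) had a UMI in 93.1% of OX40 agonist members and 95.6% of control members. With every cell thinned to 3000 UMIs, which left out 3 OX40 agonist members and no control member, these shares were 58.9% and 56.8%. T cells, taken as barcodes with at least 3 UMIs of the CD3 chains and no Csf1r UMI and whose median depth was 7894 UMIs in the OX40 agonist and 11232 UMIs in the control library, gave the background, and there the thinned shares for Adgre1 were 1.67% and 1.10%. Csf1r, required by the rule, stood at 260 and 237 CPM. OX40 itself was nearly absent, with Tnfrsf4 at 2.16 CPM in OX40 agonist and 1.59 CPM in control members. Its ligand Tnfsf4 had 2 UMIs in OX40 agonist members and 1 in control members.

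Some genes known from settled tissue macrophages were rare in members at this depth. After thinning, the hyaluronan receptor gene Lyve1 had a UMI in 1.24% of OX40 agonist and 0.400% of control members, against 3.35% and 1.60% unthinned. The haemoglobin scavenger receptor Cd163 gave the same thinned shares, 1.24% and 0.400%, and 6.69% and 4.0% unthinned. Lyve1 was found in 0 of 1794 and 0 of 1996 thinned T cells, which allows shares of up to 0.167% and 0.150%, and Cd163 in 0.0557% and 0.100%. Both genes were thus rare in members, and these and Timd4 are named for their role and not by size. Timd4, a receptor for dying cells on several resident macrophages, had a UMI in 0 of 565 thinned OX40 agonist members and 0 of 250 thinned control members. These counts allow shares of cells with a UMI of up to 0.531% and 1.20%, and set no limit on cells that express the gene. Unthinned, Timd4 had a UMI in 0.176% of OX40 agonist members and in 0 of 250 control members. The mannose receptor Mrc1 was widespread, with thinned shares of 69.7% in OX40 agonist and 60.4% in control members, 94.5% and 94.0% unthinned, and 2.23% and 0.451% in thinned T cells.

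Members made up a larger part of the OX40 agonist library than of the control library. They were 7.57% (6.98 to 8.20) of its filtered barcodes, against 3.93% (3.47 to 4.44) in the control library, a ratio of 1.92 (1.66 to 2.24). The barcodes that meet every condition except the minimum on the 3 genes are called Csf1r phagocytes here. These were 31.2% of filtered barcodes in the OX40 agonist library and 30.9% in the control library. Members were 24.3% (22.6 to 26.1) of the Csf1r phagocytes in the OX40 agonist library and 12.7% (11.3 to 14.3) in the control library, a ratio of 1.91 (1.64 to 2.22). The sort took CD45-positive cells only, so these are shares of sorted cells and not numbers per tumour.

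C1q-high macrophages were a smaller part of the OX40 agonist library. These cells, which held no UMI of the 3 genes and at least 20 UMIs of C1qa, C1qb and C1qc, were 18.9% (17.3 to 20.5) of Csf1r phagocytes in the OX40 agonist library and 26.7% (24.8 to 28.7) in the control library. Their ratio was 0.706 (0.621 to 0.803). As the class excludes any UMI of the 3 genes, its share is not independent of that of members. Its minimum on C1q counts raw UMIs, and Csf1r phagocytes had medians of 8654 UMIs in the OX40 agonist and 9521 UMIs in the control library. Phagocytes with 1 or 2 UMIs of the 3 genes were 12.3% and 9.84%, and cells with Arg1 but little C1q 4.96% and 5.41%. The rule counts raw UMIs, and control members were the deeper ones. The rule was also applied after thinning to 3000 UMIs, which left out shallower barcodes. With this setting there were 6729 filtered barcodes in the OX40 agonist and 5870 in the control library. Of these, 129 OX40 agonist and 24 control barcodes were members. The ratio was 4.69 over these barcodes and 4.40 over the Csf1r phagocytes among them. A stricter choice, made after seeing the data, kept members and Csf1r phagocytes with no UMI of the CD3 chains, S100a8, S100a9, Nkg7 or Gzmb. They also held under 3 UMIs of Pmel, Mlana and Dct together. With it 336 OX40 agonist and 81 control members remained. The ratio was 3.51 over all filtered barcodes, which were not limited this way, and 2.33 over the Csf1r phagocytes kept. These limits also count raw UMIs, of which control members held more, and the part of depth was not tested.

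**Figure D1:**
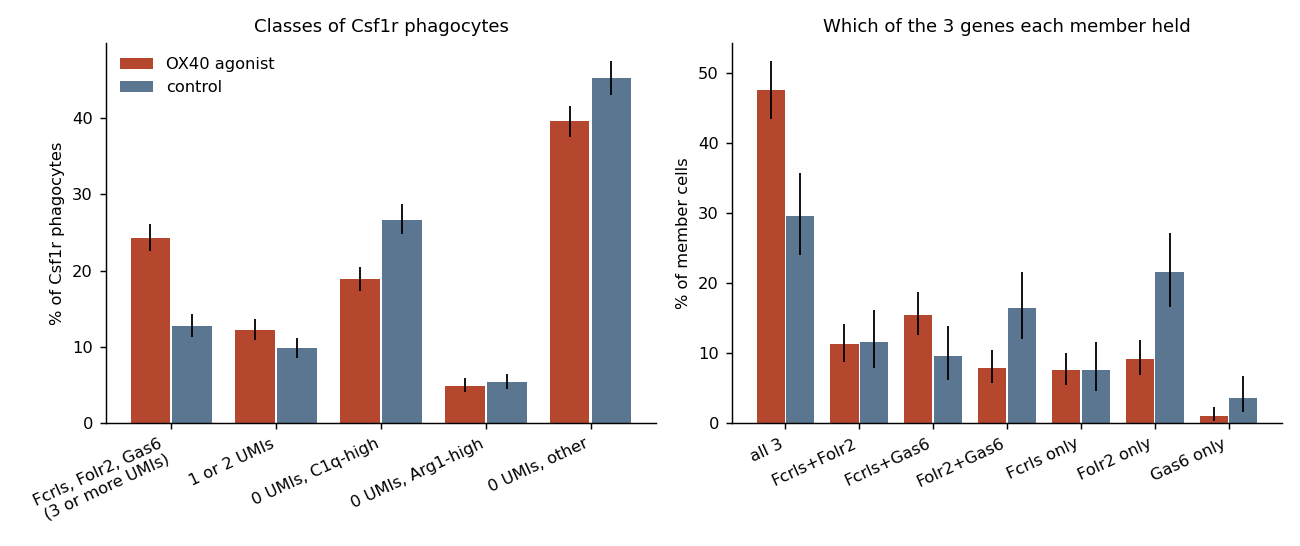
Left, percent of Csf1r phagocytes (y axis) in 5 classes (x axis) for the OX40 agonist and control libraries; right, percent of members (y axis) by which of Fcrls, Folr2 and Gas6 they held (x axis). Bars are shares with 95% Clopper-Pearson intervals: members were 24.3% against 12.7% of phagocytes, and cells with all 3 genes 47.5% against 29.6% of members.

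Members differed in which of the 3 genes they held. All 3 were found in 47.5% (43.4 to 51.7) of OX40 agonist members and 29.6% (24.0 to 35.7) of control members. A Fcrls UMI was found in 81.9% (78.4 to 85.0) of OX40 agonist members and 58.4% (52.0 to 64.6) of control members. Cells with Folr2 alone were 9.15% of OX40 agonist and 21.6% of control members. After thinning, Fcrls remained in 49.6% and 26.0% of members and Gas6 in 41.2% and 20.4%, whereas Folr2 was in 39.5% and 40.0%. Thinned T cells held a UMI of Fcrls in 0.725% and 0.200%, of Gas6 in 0.502% and 0.0501% and of Folr2 in 0.613% and 0.401%. As counts of these genes chose the cells, in libraries of unequal depth, these shares are a description only.

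The rule also leaves out barcodes with these transcripts. Of 843 OX40 agonist barcodes with at least 3 UMIs of the 3 genes, 275 failed another condition, as did 164 of 414 control barcodes. The condition failed most often was the limit on the CD3 chains, which 160 OX40 agonist and 118 control barcodes exceeded. Members held 68.6% of all Fcrls UMIs in the OX40 agonist library and 61.0% in the control library. For Folr2 the shares were 58.4% and 49.6%, and for Gas6 69.1% and 56.2%.

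Against the C1q-high macrophages of the same library, members carried more RNA of resident macrophage genes and of genes of dividing cells, and less of monocyte, class II and inflammatory genes. A gene counted as called when the absolute log2 ratio, after adding 10 CPM to both sides, was at least 1, the ratio's interval left out 1, and no cell held over 25% of the higher side's UMIs. Genes at 50 CPM or more in at least 5% of cells of the higher side were compared. In both libraries alike, 29 of 2748 genes (1.06%) were called higher in members and 45 (1.64%) lower, and none was called in opposite directions. Since the rule chose the cells, these contrasts describe the members and are no test. Members were also the deeper cells, with medians of 16958 UMIs in the OX40 agonist and 21859 UMIs in the control library. C1q-high macrophages had medians of 10585 and 13102 UMIs. Members needed 3 raw UMIs of the 3 genes and C1q-high macrophages 0, and thinning came after that choice. The part of depth in these contrasts was not tested. Fcrls, Folr2 and Gas6 are 3 of the 29.

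Igf1, an insulin-like growth factor, was among the other 26. In the OX40 agonist library it stood at 265 CPM in members and 23.3 CPM in C1q-high macrophages, and in the control library at 103 and 22.3 CPM, log2 ratios of 3.05 and 1.81. Cbr2, a carbonyl reductase, had log2 ratios of 2.70 in the OX40 agonist library and 1.91 in the control library. The protease inhibitor Serpinb6a had 2.55 and 2.46, the growth factor binding protein Igfbp4 2.32 and 2.09, and the peripheral myelin protein Pmp22 2.30 and 1.87. These genes were thus higher in members by a like amount in either library, with Igf1 and Cbr2 further apart in the OX40 agonist library. Stab1 was at 2.19 and 2.10, Mrc1 at 1.68 and 1.60 and the prostaglandin D synthase Hpgds at 1.67 and 1.58. The platelet chemokine gene Pf4 was at 1.68 and 2.11, the selenium carrier Selenop at 1.61 and 1.47 and the metalloproteinase inhibitor Timp2 at 1.52 and 1.79. Of the tissue-resident macrophage list, 7 of 15 measured genes were called higher in the OX40 agonist library and 7 of 12 in the control library, with list medians of 0.96 and 1.52. The growth factor list was split, with 7 genes higher and 7 lower in the OX40 agonist library and 8 and 7 in the control library. Over all genes measured the medians were 0.09 and 0.11.

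Genes of dividing cells were also higher in members. All 17 measured genes of the S phase and mitosis list were higher than in C1q-high macrophages in either library, with medians of 0.87 in the OX40 agonist library and 0.86 in the control library, and 4 and 5 of them were called. The proliferation gene Mki67 stood at 121 CPM in members and 46.2 CPM in C1q-high macrophages of the OX40 agonist library, and at 108 and 44.5 CPM in the control library. After thinning, at least 2 UMIs of 10 mitotic genes were found in 32.7% of members and 13.7% of C1q-high macrophages in the OX40 agonist library. In the control library they were found in 32.4% and 13.9%. Unthinned, the shares were 63.2% and 34.2% in the OX40 agonist library and 73.2% and 39.9% in the control library. T cells had thinned shares of 41.1% and 43.1% and so give no background for these genes. Phase was not called from these genes.

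On the low side stood genes of fresh monocytes. All 13 measured genes of the monocyte list were lower in members than in C1q-high macrophages in either library, with medians of -1.59 in the OX40 agonist library and -1.45 in the control library, and 8 were called in each. Ly6c2, the surface antigen of classical mouse monocytes, stood at 15.1 CPM in members and 163 CPM in C1q-high macrophages of the OX40 agonist library, and at 37.0 and 175 CPM in the control library. The chemokine receptor Ccr2 had log2 ratios of -1.94 and -1.63, Plac8 -2.60 and -2.43, and Ly6i -2.70 and -2.75. The cytokine Il1b stood at 531 and 2597 CPM in the OX40 agonist library and at 529 and 2525 CPM in the control library, log2 ratios of -2.27 and -2.23. Members thus held about the same level of Il1b in both libraries, well under that of the C1q-high cells. Of the inflammatory cytokine and enzyme list, 12 of 15 genes were lower in the OX40 agonist library, with 7 called lower and 1 higher, and 10 of 14 in the control library, with 5 called lower and 1 higher.

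Class II antigen presentation genes were lower in members too. All 9 measured genes of the list were lower in members, with medians of -2.36 in the OX40 agonist library and -1.45 in the control library, and 6 were called in each. H2-Eb1, a class II beta chain, stood at 457 CPM in members and 3124 CPM in C1q-high macrophages of the OX40 agonist library, and at 1245 and 4069 CPM in the control library. Genes induced by interferon-gamma were lower in members in 16 of 16 cases in the OX40 agonist library, with a median of -1.01 and 7 called. In the control library 12 of 17 were lower, with a median of -0.30 and none called.

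**Figure D2:**
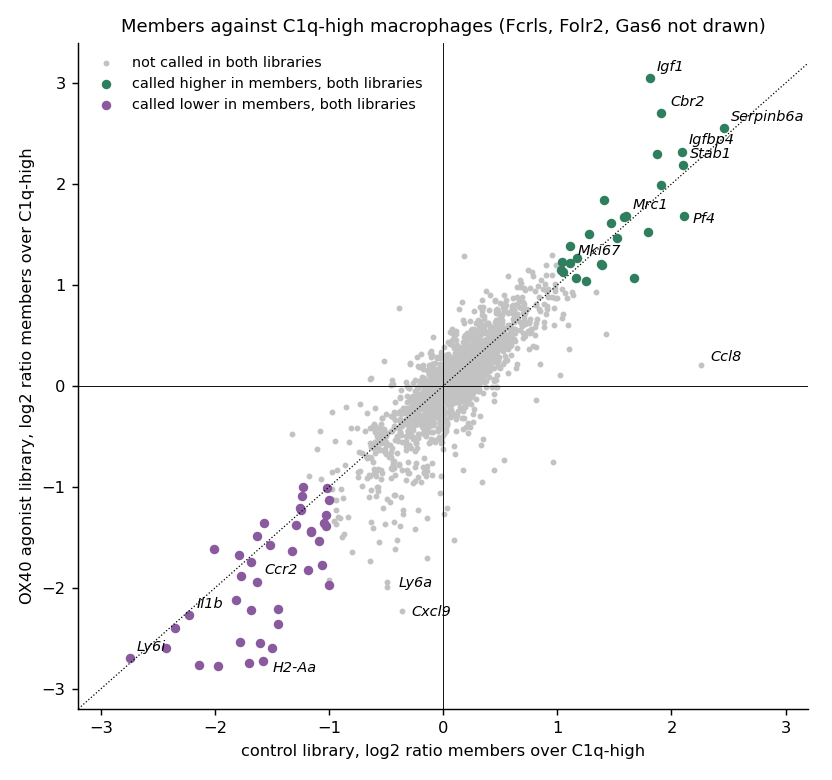
Log2 ratio of members over C1q-high macrophages for each gene (CPM + 10), in the control library on the x axis and the OX40 agonist library on the y axis; coloured points are genes called in both libraries, and Fcrls, Folr2 and Gas6 are not drawn. Igf1 lies at 3.05 in the OX40 agonist library and 1.81 in the control library, Il1b near the diagonal at -2.27 and -2.23, and Ccl8 at 0.21 and 2.26.

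Between the treatments, OX40 agonist members held less RNA of interferon-gamma response and antigen presentation genes and more of Igf1, Apoe and a few other genes than control members. Of 2857 genes compared, 39 (1.37%) were called lower in OX40 agonist members and 5 (0.175%) higher. In C1q-high macrophages, compared in the same way between the same libraries, 1 of 2653 genes (0.0377%, the uridine phosphorylase Upp1) was called lower and 0 (0%) higher, and no other tool was run. The median log2 ratio over all 7323 genes measured in members was 0.00. Of the 39 lower genes, 11 belonged to the interferon-gamma response list, 6 to MHC class II, 3 to the type I interferon list, 1 to MHC class I and 18 to none of these 4. When the rule was applied after thinning, with 24 control members left, 8 of the 39 were still called lower, and among members without a Fcrls UMI 23 were.

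Interferon-gamma response genes were lower throughout. Of the 20 genes of the list, 17 reached 10 CPM in either library and all 17 were lower in OX40 agonist members, with a median log2 ratio of -1.23 and 11 called. The T cell attracting chemokine Cxcl9 (chromosome 5, 92321347 to 92328079, mm10) stood at 248 CPM (238 to 257) in OX40 agonist members and 1008 CPM (982 to 1034) in control members, a fold of 0.246 (0.234 to 0.258). After thinning it was found in 16.3% of OX40 agonist and 56.8% of control members, against 24.1% and 71.2% unthinned and 2.56% and 4.31% of thinned T cells. Most control members thus held a Cxcl9 transcript at this depth and most OX40 agonist members did not. Gbp2, a guanylate-binding GTPase of cell-autonomous defence (chromosome 3, 142620602 to 142638008), stood at 82.3 CPM in OX40 agonist and 340 CPM in control members, a fold of 0.242 (0.223 to 0.263). The related GTPases Gbp4 and Iigp1 had log2 ratios of -1.86 and -1.88, and the chemokine Cxcl10 stood at 348 and 831 CPM, -1.23. Gbp7 was at -1.46, but at 0.51 when the rule was applied after thinning.

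The class II genes were lower as well. Of 11 listed, 8 were measured and all 8 were lower in OX40 agonist members, with a median of -1.32 and 6 called. The class II alpha chain H2-Aa (chromosome 17, 34282744 to 34287823) stood at 569 CPM (554 to 584) in OX40 agonist members and 1663 CPM (1629 to 1696) in control members, a fold of 0.342 (0.331 to 0.354). The invariant chain Cd74 stood at 1979 and 5483 CPM, a fold of 0.361 (0.355 to 0.367). A UMI of H2-Aa was found in 37.2% of thinned OX40 agonist members and 76.8% of thinned control members, against 63.4% and 91.6% unthinned and 12.8% and 12.2% of thinned T cells. Per thinned cell, the median count over H2-Aa, H2-Ab1, H2-Eb1 and Cd74 was 2 (quartiles 0 and 11) in OX40 agonist members and 19 (6 and 44.75) in control members. In C1q-high macrophages it was 59 in the OX40 agonist library and 79 in the control library. When the rule was applied after thinning, with 24 control members left, the class II median was -0.16, H2-Aa was at -0.52, and H2-Ab1, H2-Eb1 and H2-DMb1 were at 0.23, 0.34 and 0.92.

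MHC class I genes and the type I interferon genes were lower by less. All 18 genes of the class I presentation list were lower in OX40 agonist members, with a median of -0.78. Of the list only H2-T23, a non-classical class I gene, was called, at -1.29. H2-Q7, a class I gene that the list does not hold, was also called lower. It stood at 88.2 CPM in OX40 agonist and 258 CPM in control members, -1.45. The peptide transporter Tap1 stood at 65.0 and 136 CPM, a log2 ratio of -0.96. All 19 measured type I interferon genes were lower, with a median of -0.65 and 3 called. Ifit1, an antiviral RNA-binding protein, stood at 49.5 CPM in OX40 agonist and 118 CPM in control members, -1.11, but at 1.49 when the rule was applied after thinning. The antiviral enzyme Rsad2 was at -1.04 and the nucleic acid sensor Zbp1 at -1.03, or 0.06 after thinning. Ifit3, at -1.20, was not called because 1 cell held 28.2% of its control UMIs.

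Other immune genes lay on the same side. Ccl8, a chemokine for monocytes and T cells (chromosome 11, 82115185 to 82116799), stood at 745 CPM (728 to 762) in OX40 agonist and 2597 CPM (2555 to 2639) in control members, a fold of 0.287 (0.279 to 0.295). Of 16 measured chemokine genes 12 were lower, with a median of -0.27 and 4 called, the others being Cxcl9, Cxcl10 and Ccl5. Acod1, which makes the metabolite itaconate, stood at 29.5 CPM in OX40 agonist and 149 CPM in control members, a fold of 0.199 (0.174 to 0.227). The interferon-induced surface antigen Ly6a stood at 173 and 720 CPM, a fold of 0.240 (0.227 to 0.254). Complement genes were at a median of -0.27, with 8 of 11 lower and none called. All 5 measured Fc gamma receptor genes were lower, with a median of -0.61, and Fcgr4, an activating receptor, was called at -1.26. Cd274, which encodes the checkpoint ligand PD-L1, stood at 56.9 CPM in OX40 agonist and 139 CPM in control members, -1.16. Of the 17 checkpoint genes measured it was the only call, and the median was -0.11. Genes with close copies, here the Gbp, class I, Ly6 and Ifit families, are less certain one by one, since the deposited counts do not show how shared reads were treated.

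**Figure D3:**
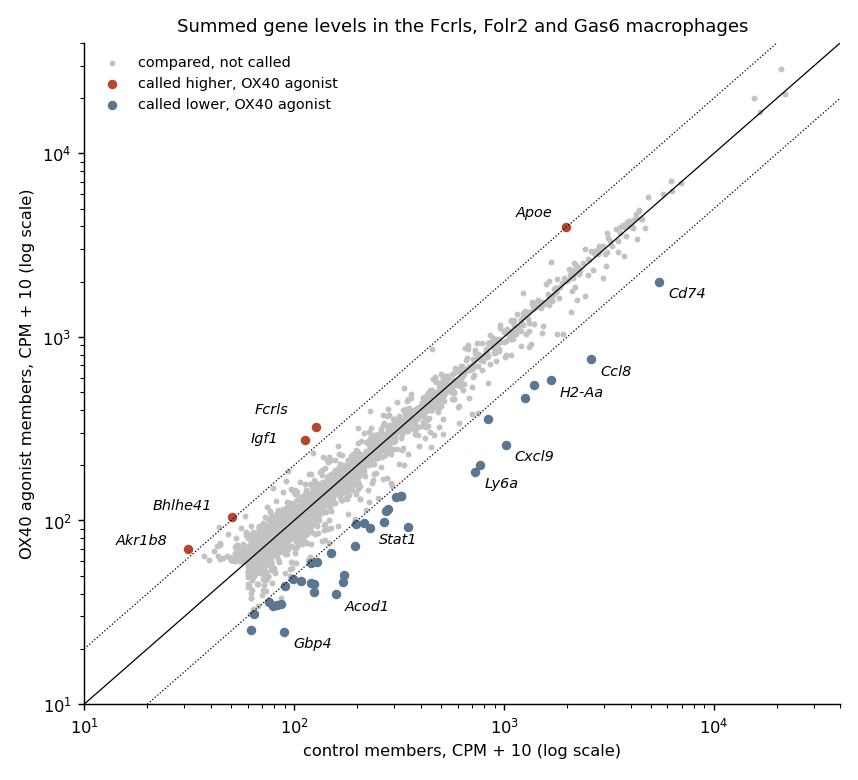
Summed level of each compared gene in OX40 agonist members (y axis) and control members (x axis), in CPM + 10 on log axes; the solid line marks equal levels and the dotted lines a 2-fold difference. Called genes are coloured: 39 lie below, among them Cxcl9 at 248 against 1008 CPM, and 5 above, among them Apoe at 3936 against 1963 CPM.

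The 5 genes called higher were Fcrls, Igf1, Akr1b8, Bhlhe41 and Apoe. Fcrls is a rule gene and is given for completeness, with a log2 ratio of 1.36. Igf1 (chromosome 10, 87858265 to 87937042) stood at 265 CPM (255 to 275) in OX40 agonist members and 103 CPM (94.7 to 112) in control members, a fold of 2.57 (2.35 to 2.82). It was found in 40.0% of thinned OX40 agonist members and 23.2% of thinned control members, against 68.8% and 50.4% unthinned and 0.502% and 0.301% of thinned T cells. The aldo-keto reductase Akr1b8 stood at 60.2 and 21.3 CPM, a fold of 2.82 (2.32 to 3.46). The transcription factor Bhlhe41 stood at 94.3 and 40.7 CPM, a fold of 2.32 (2.00 to 2.69). The lipid carrier Apoe (chromosome 7, 19696109 to 19699188) stood at 3936 CPM (3898 to 3975) in OX40 agonist and 1963 CPM (1926 to 1999) in control members, a fold of 2.01 (1.96 to 2.05). Most of these calls depended on how members were chosen. When the rule was applied after thinning, 1 of the 5 was still called, and Fcrls, Akr1b8 and Bhlhe41 had log2 ratios of 0.45, 0.44 and 0.51. Among members with a Fcrls UMI 2 of the 5 were called, and Apoe was at 0.63 among members without it. Igf1 lay between 1.15 and 1.40 over the alternative settings, which do not include the bins by content of the 3 genes described below. In those bins, set per 10000 UMIs, it was at 1.32, 0.81 and 0.81, and in bins of raw UMIs at 1.16, 1.29 and 0.87.

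Lipid and resident macrophage genes were mostly higher, by amounts under the limit for a call. Of 21 measured lipid handling genes 16 were higher, with a median of 0.35, and Apoe was the call. The cholesterol exporter Abca1 stood at 154 CPM in OX40 agonist and 81.8 CPM in control members, 0.84, and the fatty acid carrier Fabp4 at 176 and 83.4 CPM, 1.00, just under the limit before rounding. The nuclear receptor Nr1h3, which drives cholesterol export genes, stood at 17.9 and 36.1 CPM, -0.73. Of 14 measured tissue-resident genes 11 were higher, with a median of 0.38 and Igf1 called. Cbr2 stood at 140 and 69.4 CPM, 0.92. In the bins per 10000 UMIs described below it was at -0.60, 0.34 and 0.59, and so was lower in OX40 agonist members of the lowest bin. All 6 measured microglia-associated genes were higher, with a median of 0.38, but the fractalkine receptor Cx3cr1, at 1.07, was not called because 1 cell held 26.0% of its OX40 agonist UMIs. Of 15 genes for uptake of apoptotic cells 11 were higher, with a median of 0.27 and none called. Of 13 iron and haem genes 10 were higher, with a median of 0.20, and the haem oxygenase Hmox1 stood at 1722 and 1218 CPM, 0.50.

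Several groups lay near the median of all genes. The macrophage identity list had a median of 0.02, with 7 genes higher and 7 lower. Glycolysis and hypoxia genes were at 0.01, growth factors at 0.01 with Igf1 as the call, and dissociation stress genes at 0.02. The S phase and mitosis list was at 0.15, with 13 of 17 genes higher and none called. Mki67 stood at 121 CPM in OX40 agonist and 108 CPM in control members, 0.15. The 30 measured macrophage transcription factors were at 0.01, with Bhlhe41 as the call and the quiescence factor Klf2 at 332 CPM in OX40 agonist and 601 CPM in control members, -0.84. Scavenger and endocytic receptor genes were at 0.04 and CSF1 system genes at -0.08, none called. Inflammatory cytokine and enzyme genes were at -0.10, with Acod1 the call, and Arg1, an arginine-degrading enzyme, stood at 242 and 437 CPM, -0.83.

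In C1q-high macrophages the interferon, antigen presentation, Fc gamma receptor, lipid and resident lists lay nearer to 0, and the difference between the 2 kinds of macrophage was not tested. The interferon-gamma response median there was -0.37, with 16 of 16 genes lower and none called, and the class II median -0.37, with 9 of 9 lower and none called. The class I median was -0.19, the Fc gamma receptor median -0.09, the lipid median 0.01 and the resident median 0.18. The type I interferon median was 0.13, with 13 of 18 genes higher. Other lists lay farther from 0 than in members, among them scavenger receptors at 0.12, macrophage identity at 0.07 and dissociation stress at -0.14, none with a call. Cxcl9 stood at 1197 CPM in OX40 agonist and 1299 CPM in control C1q-high macrophages, a log2 ratio of -0.12, and Igf1 at 23.3 and 22.3 CPM, 0.05. Each of the 39 genes called lower in members had a log2 ratio nearer to 0 in C1q-high macrophages, and 37 had the same sign. The exceptions were Ccl8, at 0.26, and Rsad2, at 0.22. In members the lower calls had been chosen for their size there, so this count is a description.

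**Figure D4:**
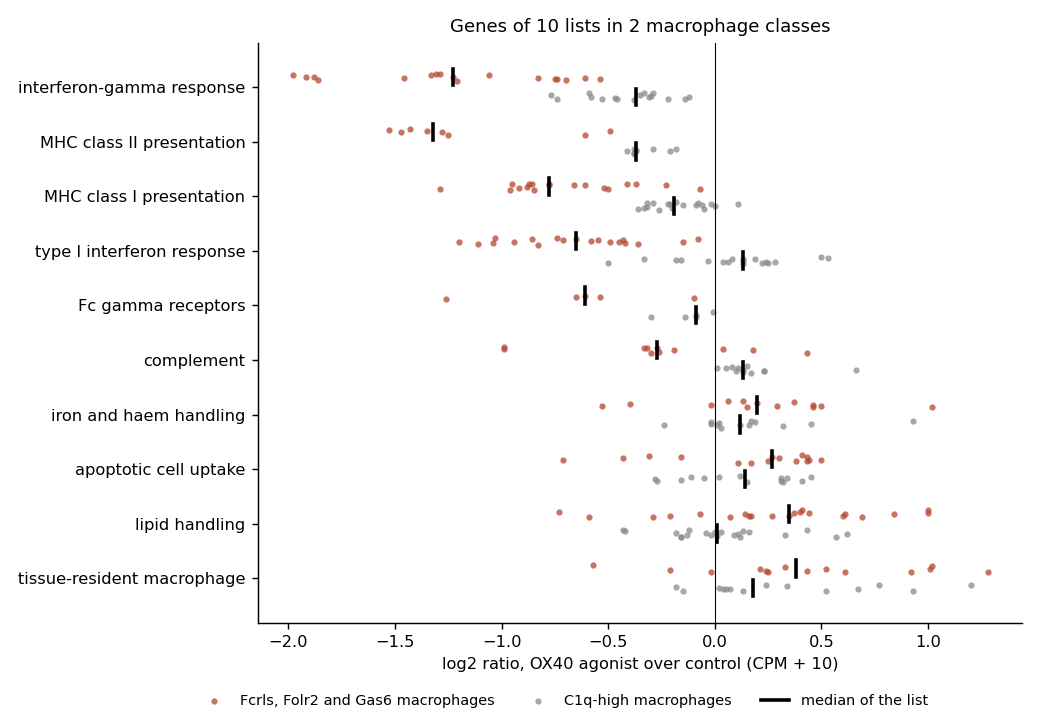
Log2 ratio of OX40 agonist over control (x axis, CPM + 10) for each measured gene of 10 lists (y axis), in members above and in C1q-high macrophages below; black bars are list medians. The interferon-gamma response median is -1.23 in members and -0.37 in C1q-high macrophages, and the class II median -1.32 and -0.37.

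RNA of other cell types was low in members and differed between the libraries. The 12 T cell markers summed to 26.3 CPM in OX40 agonist and 40.4 CPM in control members, and 3 of them entered the rule. The 9 NK and cytotoxic markers, among them Ccl5, summed to 114 and 250 CPM, of which Ccl5 made up 87.3 and 205 CPM. The 6 B and plasma cell markers summed to 87.7 and 125 CPM, the 7 neutrophil markers to 51.5 and 34.0 CPM, and the 8 melanoma markers to 343 and 265 CPM, of which Gpnmb, also a macrophage gene, made up 212 and 127 CPM. The 9 dendritic markers summed to 493 and 527 CPM, of which Bst2 made up 484 and 512 CPM, and Flt3 was at 0 by the rule. Fibroblast markers summed to 4.71 and 0.176 CPM, endothelial markers to 9.42 and 5.29 CPM and mast cell and basophil markers to 0.294 and 0.529 CPM. Lum, Pdgfrb, Cldn5, Cpa3, Mcpt8, Tpsb2 and Ms4a2 were at 0 in both. Limits on some of these markers kept 336 OX40 agonist and 81 control members. These held no UMI of Cd3e, Cd3d, Cd3g, S100a8, S100a9, Nkg7 or Gzmb, and under 3 UMIs of Pmel, Mlana and Dct together. The other markers summed above, among them Ccl5 and Gpnmb, were not limited at this step. In the members kept, the interferon-gamma response median was -1.33 and the class II median -1.37. There 45 genes were called lower, 34 of them among the 39, and 13 were called higher, 3 of them among the 5.

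Since OX40 agonist members held more of the 3 genes, members were also compared in bins of their content of these genes, bins that were chosen after values were seen. Bins were set by the UMIs of the 3 genes per 10000 UMIs of the cell, and held 99, 175 and 294 OX40 agonist and 112, 86 and 52 control members. Since every member held at least 3 UMIs of these genes, the bin under 3 per 10000 could hold only cells above 10000 UMIs. The bins are thus tied to depth and use the counts that chose the members, and the part of depth was not tested. In the bins under 3, from 3 to under 6, and 6 or more, the interferon-gamma response medians were -0.89, -0.99 and -1.51, with every measured gene of the list lower in OX40 agonist members. The class II medians were -0.90, -0.85 and -1.08, again with every measured gene lower. The type I interferon medians were -0.20, -0.36 and -1.04. In bins of raw UMIs of the 3 genes, from 3 to under 6, from 6 to under 12, and 12 or more, the interferon-gamma response medians were -0.74, -1.17 and -1.35 and the class II medians -0.89, -1.12 and -1.28. The type I interferon medians there were -0.32, -0.02 and -1.02, with 8 genes higher and 9 lower in the middle bin.

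With bins per 10000 UMIs, H2-Aa and Cxcl9 were lower, and Igf1 higher, in bins with more of the 3 genes, within each library. H2-Aa stood at 1030, 745 and 275 CPM in OX40 agonist members and at 2063, 1615 and 655 CPM in control members. Cxcl9 stood at 521, 353 and 73.1 CPM in OX40 agonist members and at 1109, 1090 and 607 CPM in control members. Igf1 stood at 164, 231 and 327 CPM in OX40 agonist members and 59.7, 127 and 182 CPM in control members. With bins of raw UMIs, Cxcl9 in control members stood at 1005, 1199 and 757 CPM, highest in the middle bin. In the bins per 10000 UMIs the log2 ratios between the libraries were 1.32, 0.81 and 0.81 for Igf1. For Apoe they were 1.12, 0.33 and 0.66, so there both genes were under the limit for a call in the middle and top bins. With bins of raw UMIs they were 1.16, 1.29 and 0.87 for Igf1 and 1.06, 0.63 and 1.20 for Apoe. Igf1 was then under the limit only in the top bin and Apoe only in the middle bin. In every bin OX40 agonist members were lower for H2-Aa, Gbp2 and Cxcl9 and higher for Igf1 and Apoe. Stab1 did not follow that pattern. In the bins per 10000 UMIs it stood at 175, 236 and 513 CPM in OX40 agonist and 203, 256 and 457 CPM in control members. The tissue-resident medians in these bins were -0.08, 0.26 and 0.08.

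**Figure D5:**
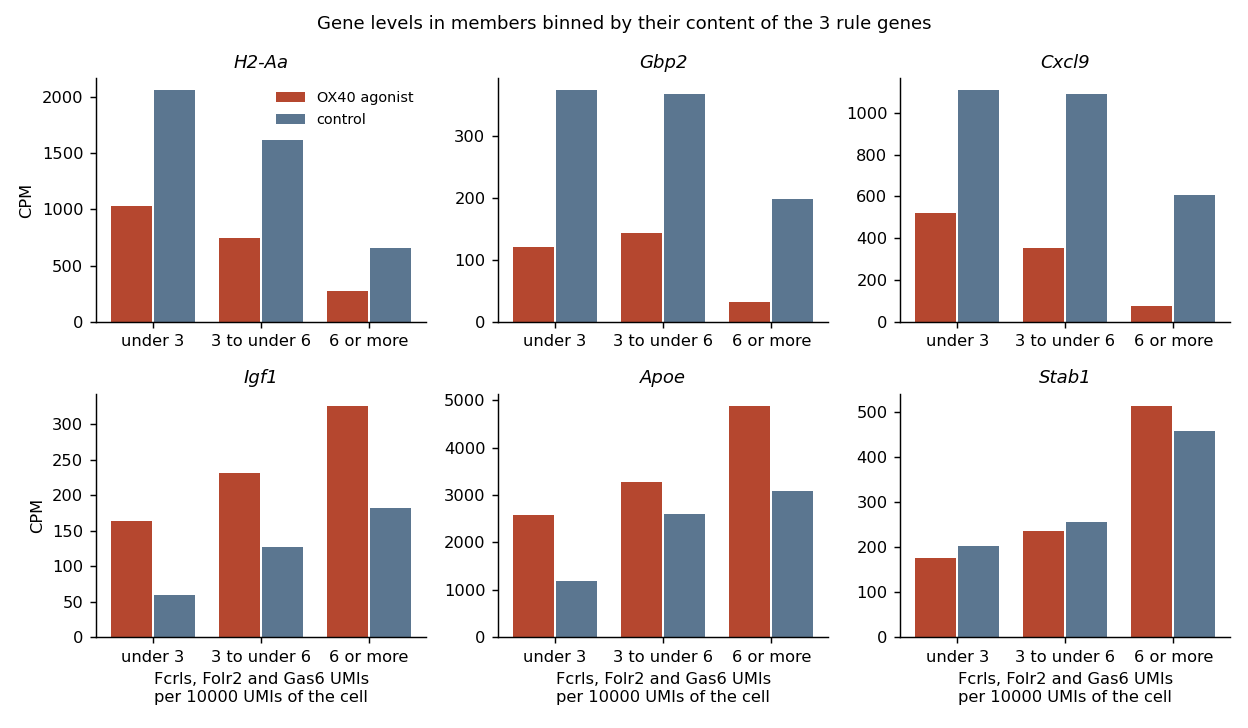
Level in CPM (y axes, each from 0) of 6 genes in members binned by UMIs of Fcrls, Folr2 and Gas6 per 10000 UMIs of the cell (x axes), for the OX40 agonist and control libraries; bars are sums over the cells of a bin, with no replicate error. H2-Aa stands at 275 against 655 CPM in the top bin and Igf1 at 327 against 182 CPM.

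A split by Fcrls gave a similar picture for class II genes and a different count of higher genes. Among members with a Fcrls UMI, 465 in the OX40 agonist and 146 in the control library, the interferon-gamma response median was -1.30 and the class II median -1.35, with 3 genes called higher and 35 lower. Among members without it, 103 and 104 cells, the medians were -0.91 and -1.08, with 15 genes called higher and 37 lower. Of the 39 genes called lower in all members, 34 were called lower with Fcrls and 23 without it. The S phase and mitosis median was 0.07 in cells with Fcrls and -0.48 in cells without it, and the monocyte median 0.00 and 0.83. With OX40 agonist cells with and without Fcrls weighted as in the control library, 33 genes were called lower and 6 higher. The interferon-gamma response median was then -1.14 and the class II median -1.26.

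The members were not uniform. Those with Fcrls and no Folr2 (131 OX40 agonist and 43 control cells) were set against those with Folr2 and no Fcrls (97 and 95 cells), a contrast chosen after values were seen. In both libraries alike, 14 of 2721 genes (0.515%) were called higher and 12 (0.441%) lower in the Fcrls cells, Fcrls and Folr2 included. Among the genes higher were those of dividing cells, with Mki67 at log2 ratios of 1.42 in the OX40 agonist library and 1.27 in the control library, and Pclaf, a partner of the replication clamp PCNA, at 2.18 and 1.24. All 17 measured S phase and mitosis genes were higher in either library, with medians of 1.40 and 0.83. Of these, 14 were called in the OX40 agonist library and 2 in the control library. The tetraspanin Cd81 was at 1.59 and 1.08 and Cxcl10 at 1.01 and 1.35. Over all genes the median was 0.07 in either library.

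The Folr2 cells carried more RNA of lipid handling genes and of Arg1. Arg1 stood at 90.1 CPM in Fcrls cells and 741 CPM in Folr2 cells of the OX40 agonist library, and at 59.2 and 822 CPM in the control library, log2 ratios of -2.91 and -3.59. Spp1, the secreted matrix protein osteopontin, was at -2.96 and -2.11, the glycoprotein Gpnmb at -2.33 and -2.27, the cathepsin Ctsl at -2.12 and -1.31 and the fatty acid carrier Fabp5 at -1.61 and -1.16. Of 21 lipid handling genes, 19 in the OX40 agonist library and 20 in the control library were lower in Fcrls cells. The monocyte list was less alike between the libraries. Its median was -1.35 in the OX40 agonist library, with 1 gene higher, 9 lower and 6 called lower. In the control library it was -0.28, with 5 higher, 7 lower and 2 called lower. The class II medians were 0.09 and 0.14 and the interferon-gamma response medians 0.05 and -0.04, near the median of all genes. These Folr2 cells were 97 of 568 OX40 agonist members and 95 of 250 control members, so the libraries also differ in this mix, whose part in the differences between treatments was examined only as the split by Fcrls.

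At the edge of the rule some genes stood close on both sides of the limit and others did not. In the OX40 agonist library, the 63 members with 3 UMIs of the rule genes held Igf1 at 150 CPM, and the 102 phagocytes with 2 UMIs held it at 94.2 CPM. Their H2-Aa stood at 1257 and 1701 CPM, their Mrc1 at 355 and 326 CPM and their Ccr2 at 32.9 and 142 CPM. In the control library, with 55 cells inside and 72 outside, Igf1 stood at 55.7 and 40.6 CPM, H2-Aa at 2518 and 2714 CPM, Mrc1 at 348 and 301 CPM and Ccr2 at 119 and 86.5 CPM. Ccr2 was thus lower inside the limit in the OX40 agonist library and higher inside it in the control library. Ly6c2 stood at 37.4 CPM inside and 80.7 CPM outside in the OX40 agonist library, and at 22.8 and 104 CPM in the control library. Cbr2 stood at 34.0 and 55.8 CPM in the OX40 agonist library, and at 43.8 and 18.1 CPM in the control library.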

How the data were processed

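Libraries of CD45-positive tumour leukocytes, 1 from mice given an OX40 agonist and 1 from control mice, were analysed. The deposited matrices hold counts of UMIs per gene and barcode, not normalized. Cell Ranger and the build mm10 are named in the submitters' processing notes, and version 3.1.0 per the file headers. Other settings of the authors are not known here. Both list 31053 genes. Barcodes were filtered and members chosen as the report states. The members, the gene lists and the tests were chosen with earlier results of these data known. UMIs were summed per library and class, and given as CPM with exact Poisson intervals, exact conditional intervals for ratios and Clopper-Pearson intervals for shares. Log2 ratios add 10 CPM to both sides. List genes at 10 CPM or more in either group were used. Genes were named by rule: the 15 highest and 15 lowest of each main contrast, up to 4 per list, and the markers, in all 153 genes, each found in GENCODE M21 (GRCm38, the same build as mm10). Mitochondrial, ribosomal protein, Gm, Rik and receptor segment genes and Xist were not named. Bins, the Fcrls and Folr2 split and the genes named from it were chosen after values were seen. Doublets were not removed: the automatic Scrublet threshold marked 0% and 0.0157% of barcodes, so the highest scores were removed as an alternative. Scripts used Python 3.11.15 with numpy 2.4.6, scipy 1.17.1, pandas 2.3.3 and scanpy 1.11.5. Only the rule for a call was tried on simulated data. These were Poisson sums with no variation between cells or replicate libraries, so they cannot show how the rule fares with such variation. With 1 library per group no count model was run.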

Additional observations from a re-analysis of the deposited data

Results flagged for a closer look

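For 5 of the named genes compared in both, the OX40 agonist over control ratio in members and in C1q-high macrophages of the same libraries lay on opposite sides of 1, each interval leaving out 1, with log2 ratios at least 1 apart. With 1 library per group the differences were not tested. Ccl8 was at -1.79 in members and 0.26 in C1q-high macrophages, and Rsad2 at -1.04 and 0.22. Ifit3 was at -1.20 and 0.50, with 28.2% of its control member UMIs in 1 cell. Fabp4 was at 1.00 and -0.16, and Gpnmb at 0.69 and -0.42. Over the alternative settings the ratio in members changed sign for Ifit3, from -1.60 to 1.20, and for Fabp4, from -0.10 to 1.60. For Ccl8, Rsad2 and Gpnmb it kept its sign. Akr1b8, at 1.16 and -0.08, also differed in sign but did not meet these limits.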

How the results depend on the processing

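Over the alternative settings that recompute the ratio between treatments, the 44 genes called between the treatments kept their direction in 561 of 570 gene and setting pairs. The 9 exceptions all came from applying the rule after thinning to 3000 UMIs: Zbp1 0.06, Ifit1 1.49, Ass1 1.62, H2-DMb1 0.92, Gbp3 0.23, H2-Ab1 0.23, Fam26f 0.13, H2-Eb1 0.34 and Gbp7 0.51. That setting leaves 129 OX40 agonist and 24 control members, 57 genes higher and 67 lower, which share 1 of the 5 higher and 8 of the 39 lower calls, 17 higher in members than in C1q-high macrophages, share ratios of 4.69 and 4.40, and a class II median of -0.16; the cause was not tested. With at least 6 UMIs of the 3 genes the share ratios were 2.55 and 2.53, the interferon-gamma response median -1.43 and the class II median -1.42. With Fcrls-positive members the ratios were 2.70 and 2.67, with 3 genes higher. With the limits on other cells' markers given above they were 3.51 and 2.33, with 13 genes higher and a class II median of -1.37. Members without Fcrls gave 15 genes higher, an interferon-gamma response median of -0.91 and a class II median of -1.08. The class II median was -1.26 with the control library's Fcrls share, -1.39 at 5% mitochondrial UMIs, -1.25 without a filter on low values and -1.21 as a mean over cells. A filter at 10 CPM gave 9 genes higher. A pseudocount of 1 CPM gave 49 genes higher in members than in C1q-high macrophages, and at least 60 C1q UMIs in the C1q-high cells 26 genes lower. Removing the highest doublet scores removed 1 OX40 agonist member and no control member. The settings on Fcrls and on other cells' markers were chosen after seeing the data. No paired analysis was possible because each group is 1 library and no test was run.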
